A study of Homo sapiens with 6 samples.

Results

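A set of 10 genes was described in the RNA sequencing of LNMAT1-silenced bladder cancer cells: SLC2A1, HK2, GPI, PFKP, ALDOA, GAPDH, PGK1, ENO1 and LDHA, which carry glucose to lactate, and CA9, a marker gene of hypoxia. They were taken by symbol, each matched 1 row, and they make up 10 of the 50867 gene rows used. UM-UC-3 cells grown in Dulbecco's medium and 5637 cells grown in RPMI 1640, both established human bladder cancer lines, were infected with lentivirus carrying a control hairpin (sh-NC) or 1 of 2 hairpins against the long noncoding RNA LNMAT1 (sh-LNMAT1#1 and sh-LNMAT1#2), and stable cells were selected with puromycin. The study asked which genes change when LNMAT1 is silenced. With 6 libraries, 1 for every combination of line and construct, differences between single libraries could not be checked against replicates. Whether stable cells were pools or clones is not given in the sources used here. All cells shared the puromycin selection and a hairpin vector. Values are FPKM, fragments scaled to the length of the gene and the depth of the library, which allows levels to be compared between genes. The 3 values of a line are given in the order control, sh-LNMAT1#1, sh-LNMAT1#2.

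Glycolysis splits 1 glucose into pyruvate in the cytosol and yields ATP without oxygen, and lactate dehydrogenase then turns pyruvate into lactate. Many tumor cells run this route fast even when oxygen is present. When oxygen is low, the hypoxia-inducible factors (HIF) accumulate and bind DNA at ACGTG or GCGTG, and genes of glucose uptake, glycolysis and acid handling, CA9 among them, are known HIF targets.

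Promoter windows are shown for 4 of the genes to display this HIF core sequence. The 10 genes were not picked by sequence, but genes of their kind are known HIF targets, so the choice is not independent of it. CA9, HK2 and LDHA had the largest differences between the lines, and PGK1 followed LDHA in the size of its change within UM-UC-3, a selection made after the values were seen. RefSeq windows run from 250 bases before to 50 bases after a transcript start, 300 bases in all, on GRCh38.p14. Capitals mark ACGTG or GCGTG on either strand, so that CACGT and CACGC are matches on the other strand and CACGTG is ACGTG on both. The windows shown lie on the plus strand at chr9:35673678-35673977 for CA9, chr11:18394313-18394612 for LDHA, chrX:78103998-78104297 for PGK1 and chr2:74833877-74834176 for HK2.
CA9: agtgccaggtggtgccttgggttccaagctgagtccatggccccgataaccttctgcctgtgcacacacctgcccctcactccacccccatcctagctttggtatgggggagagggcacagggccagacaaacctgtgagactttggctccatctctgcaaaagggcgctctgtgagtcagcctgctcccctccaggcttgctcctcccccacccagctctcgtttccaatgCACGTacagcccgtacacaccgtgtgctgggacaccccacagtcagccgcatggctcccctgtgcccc
LDHA: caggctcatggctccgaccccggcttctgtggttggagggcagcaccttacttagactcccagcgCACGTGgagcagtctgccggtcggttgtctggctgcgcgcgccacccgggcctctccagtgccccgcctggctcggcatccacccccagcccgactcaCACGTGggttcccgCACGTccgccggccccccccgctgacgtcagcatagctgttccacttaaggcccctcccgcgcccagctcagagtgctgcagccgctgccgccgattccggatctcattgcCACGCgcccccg
PGK1: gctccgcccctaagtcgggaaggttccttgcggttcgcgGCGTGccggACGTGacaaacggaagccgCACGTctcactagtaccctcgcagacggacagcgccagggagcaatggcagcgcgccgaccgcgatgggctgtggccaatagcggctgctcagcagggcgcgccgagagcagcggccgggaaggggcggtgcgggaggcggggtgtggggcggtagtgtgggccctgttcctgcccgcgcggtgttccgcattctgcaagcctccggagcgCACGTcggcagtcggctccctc
HK2: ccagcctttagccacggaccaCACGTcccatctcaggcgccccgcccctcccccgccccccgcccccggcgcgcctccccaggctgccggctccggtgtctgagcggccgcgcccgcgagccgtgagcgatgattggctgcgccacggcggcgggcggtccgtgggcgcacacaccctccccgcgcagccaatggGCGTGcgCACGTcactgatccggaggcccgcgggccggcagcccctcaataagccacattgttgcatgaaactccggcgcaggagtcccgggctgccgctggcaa
The CA9 window shown held 1 marked run, the HK2 window 3, and those of LDHA and PGK1 4 each. HK2 and LDHA have a second window further downstream, not shown, with 4 and 1 such runs. Of the 17 windows of the 10 genes, 15 held a match, and each gene had at least 1 window with one. Over all 35116 windows, 21.4% held ACGTG, 36.5% held GCGTG and 48.4% held either. These shares were not matched for base composition, and some of the 10 genes have more than 1 window. A match describes the marked letters, and binding was not measured here.

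In the libraries as a whole, the depth was 19374000 to 24708000 fragments. LINC01296, the listed symbol of LNMAT1, was 14.2, 6.20 and 6.70 FPKM in UM-UC-3. Its 5637 levels were 4.70 and 2.14 FPKM with the hairpins against 11.7 FPKM for the library labelled 5637 sh-NC. The library labelled 5637 sh-NC did not look like the other 5637 libraries. Over genes its log2 values had a Pearson r of 0.985 with UM-UC-3 sh-LNMAT1#1 and of 0.617 and 0.622 with the 5637 sh-LNMAT1 libraries. UM-UC-3 sh-LNMAT1#1 had a lower r with its own line, 0.923 with sh-NC and 0.933 with sh-LNMAT1#2. These last 2 libraries had an r of 0.969 with each other. The 12 epithelial and urothelial markers summed to 231 and 368 FPKM in the 5637 sh-LNMAT1 libraries, to 0.740 FPKM for the library labelled 5637 sh-NC and to 0.779 to 0.946 FPKM in UM-UC-3. Most of the sum came from KRT5, KRT17, KRT6A and EPCAM, while UPK1B was at 0 in each library and UPK2, UPK3A, KRT14 and KRT20 were at most 0.556 FPKM in any. KRT5 was 0.0549 FPKM in that library against 81.1 and 155 FPKM in the others of the line, and CDH1 was 0.00924 FPKM against 19.2 and 14.1 FPKM. Every comparison that uses it is therefore given as one with the library labelled 5637 sh-NC, and the lines were compared with their sh-LNMAT1 libraries alone. Leukocyte and endothelial cells left little trace: PTPRC and CD3E were at 0 in each library but one, where PTPRC was 0.0108 FPKM in 5637 sh-LNMAT1#2, and the 5 endothelial markers summed to at most 0.296 FPKM. The leukocyte list summed to 13.0 to 31.1 FPKM in the UM-UC-3 libraries and the library labelled 5637 sh-NC and to 1.23 and 1.41 FPKM in the others, nearly all of it from CD68 in the former.

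The 10 genes spanned a wide range of levels. GAPDH (344 to 834 FPKM) and ENO1 (311 to 648 FPKM) were the most abundant in each library, PGK1 (51.1 to 132 FPKM) followed in each library, LDHA (23.0 to 74.6 FPKM) and PFKP (37.8 to 64.8 FPKM) lay below it, and CA9 (0.183 to 2.17 FPKM) was the lowest throughout. The 9 glycolysis genes summed to 1840, 1357 and 1642 FPKM in UM-UC-3, to 1341 FPKM for the library labelled 5637 sh-NC and to 1062 and 971 FPKM in the 5637 hairpin libraries. Their share of all FPKM was highest in UM-UC-3 sh-NC, at 0.950%, and lowest in 5637 sh-LNMAT1#2, at 0.485%. GPI and ALDOA varied least, with a highest level 1.38 and 1.45 times the lowest, and CA9 varied most, at 11.9 times. In RNA of whole cultures, fewer cells of a kind and less RNA per cell cannot be told apart.

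**Figure D1:**
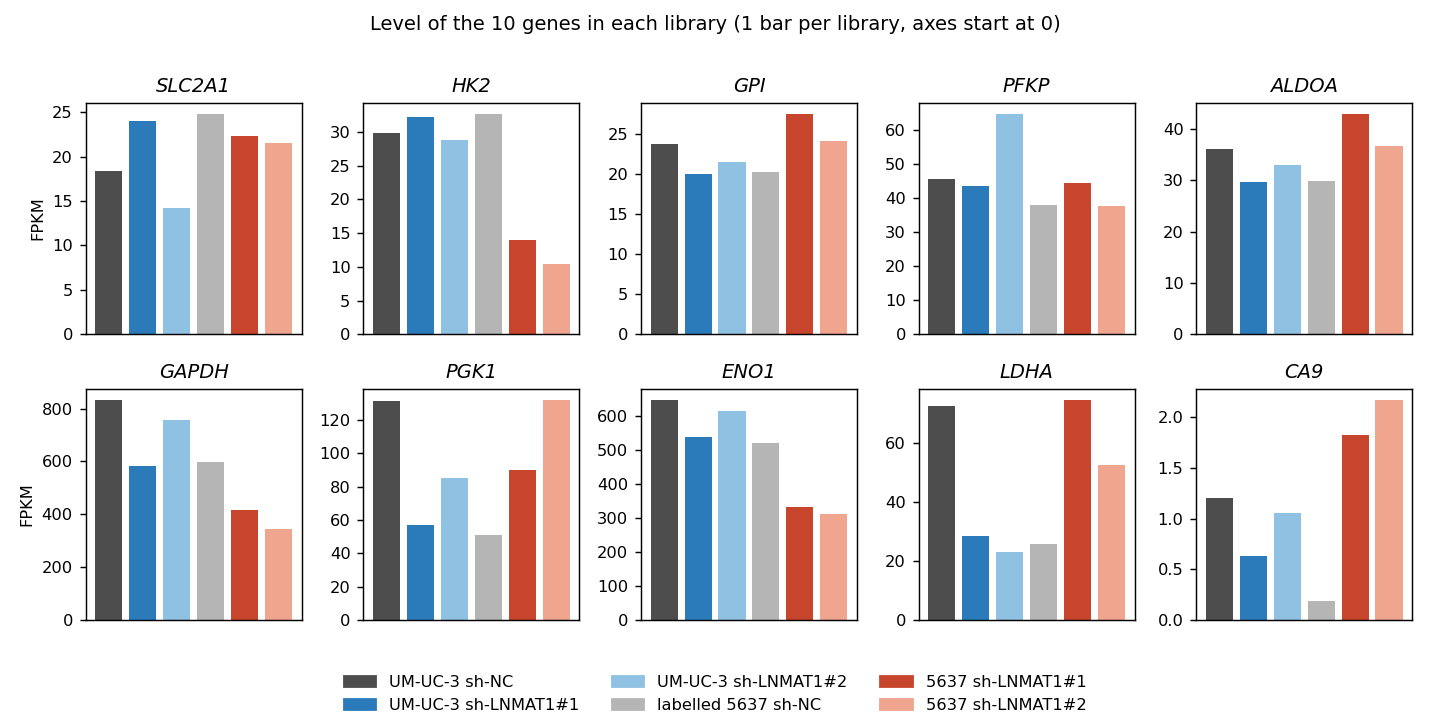
Each panel plots the FPKM of 1 gene on a linear axis from 0, with 1 bar for each of the 6 libraries and no error bar because each bar is a single library. HK2 drops to 13.9 and 10.4 FPKM in the 5637 sh-LNMAT1 libraries, while LDHA is at 72.5 FPKM in the UM-UC-3 control and at 74.6 and 52.4 FPKM in the 5637 sh-LNMAT1 libraries, with the other 3 libraries between 23.0 and 28.3 FPKM.

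SLC2A1 (ENSG00000117394, chromosome 1 from 42925375 to 42959173 on GRCh38, as for all genes here) encodes GLUT1, the basal glucose transporter. It was 18.4, 24.0 and 14.2 FPKM in UM-UC-3, 24.8 FPKM for the library labelled 5637 sh-NC, and 22.3 and 21.6 FPKM in the 5637 hairpin libraries. The hairpins moved it to opposite sides of the control in UM-UC-3, and the lines overlapped. HK2 (ENSG00000159399, chromosome 2 from 74833981 to 74893359) encodes hexokinase 2, which traps glucose as glucose 6-phosphate and is the inducible isoform of many tumors. Its level was 29.9, 32.2 and 28.7 FPKM in the UM-UC-3 libraries and 32.7 FPKM in the library labelled 5637 sh-NC, but 13.9 and 10.4 FPKM in the 5637 hairpin libraries. Both 5637 sh-LNMAT1 libraries lay below the other 4.

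GPI, PFKP and ALDOA encode the enzymes that follow, which isomerize, phosphorylate and split the sugar phosphate. GPI (ENSG00000105220, chromosome 19 from 34359480 to 34402156) was 23.8, 19.97 and 21.5 FPKM in UM-UC-3, 20.2 FPKM for the library labelled 5637 sh-NC, and 27.5 and 24.1 FPKM in the 5637 hairpin libraries. ALDOA (ENSG00000149925, chromosome 16 from 30053090 to 30070457) had the same order, with 36.1, 29.7 and 33.0 FPKM, then 29.9 FPKM, then 42.9 and 36.7 FPKM. Across the 6 libraries GPI and ALDOA had a Pearson r of 0.998 on the log2 scale, a description over libraries that fall into separate clusters. PFKP (ENSG00000067057, chromosome 10 from 3066333 to 3137712), the platelet-type phosphofructokinase, was 45.6, 43.7 and 64.8 FPKM in UM-UC-3, 38.2 FPKM for the library labelled 5637 sh-NC, and 44.5 and 37.8 FPKM with the 5637 hairpins. Only UM-UC-3 sh-LNMAT1#2 stood above the rest.

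GAPDH and ENO1, which act after the sugar is split and are also used as references for RNA and protein amounts, followed each other. GAPDH (ENSG00000111640, chromosome 12 from 6533927 to 6538374) was 834, 583 and 757 FPKM in UM-UC-3, 599 FPKM for the library labelled 5637 sh-NC, and 415 and 344 FPKM in the 5637 hairpin libraries. ENO1 (ENSG00000074800, chromosome 1 from 8861002 to 8879249), an enolase, was 648, 538 and 614 FPKM, then 520 FPKM, then 332 and 311 FPKM. For both genes the 5637 hairpin libraries lay below the other 4, which included the library labelled 5637 sh-NC, and their Pearson r over the 6 libraries was 0.980.

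PGK1 and LDHA had another pattern, in which the UM-UC-3 control was high and the UM-UC-3 hairpin libraries were low. PGK1 (ENSG00000102144, chromosome X from 78065188 to 78129296), the first ATP-yielding enzyme of the pathway, was 132, 56.9 and 85.4 FPKM in UM-UC-3, 51.1 FPKM for the library labelled 5637 sh-NC, and 89.9 and 132 FPKM in the 5637 hairpin libraries. LDHA (ENSG00000134333, chromosome 11 from 18394388 to 18408425), the lactate dehydrogenase subunit that favours lactate, was 72.5, 28.3 and 23.0 FPKM in UM-UC-3, 25.8 FPKM for the library labelled 5637 sh-NC, and 74.6 and 52.4 FPKM in the 5637 hairpin libraries. For LDHA the 3 low libraries were the UM-UC-3 hairpins and the library labelled 5637 sh-NC, and UM-UC-3 sh-NC lay among the 5637 hairpin libraries.

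CA9 (ENSG00000107159, chromosome 9 from 35673856 to 35681159) encodes carbonic anhydrase IX, a cell surface enzyme that hydrates carbon dioxide outside the cell. It was 1.21, 0.636 and 1.06 FPKM in UM-UC-3, 0.183 FPKM for the library labelled 5637 sh-NC, and 1.83 and 2.17 FPKM in the 5637 hairpin libraries. These levels rest on few fragments: 1.35 to 6.85 in the library labelled 5637 sh-NC, for lengths between the shortest transcript and the joined exons, which reaches under 3 fragments, and 13.9 to 70.4 in 5637 sh-LNMAT1#2. The 5637 hairpin libraries lay above the other 4, and the library labelled 5637 sh-NC lay below all.

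Silencing of LNMAT1 was compared over both lines first, as 4 sh-LNMAT1 against 2 sh-NC libraries. None of the 10 genes passed in limma, fitted with a term for the line, with Benjamini-Hochberg adjusted p of 0.569 to 0.954. Among 12716 genes tested limma called 0, or 0%, and 811 had an unadjusted p under 0.05. The log2 changes were largest for CA9 at 0.75 (SE 0.58), HK2 at -0.69 (SE 0.38), GAPDH at -0.50 (SE 0.24) and ENO1 at -0.43 (SE 0.23), and LDHA, whose changes in the lines had opposite signs, was -0.11 (SE 0.62). Without the library labelled 5637 sh-NC, the term for the line leaves the contrast to UM-UC-3 alone, with a single control library. It is then no comparison over both lines, and its log2 changes are the means over the UM-UC-3 hairpins, such as -1.49 for LDHA and 0.027 for HK2. Without UM-UC-3 sh-NC, the contrast likewise rests on 5637 alone, with the library labelled 5637 sh-NC as the sole control. HK2 was then at -1.40, LDHA at 1.26 and CA9 at 1.87, the mean changes within 5637. Silencing and cell line cannot be told apart in them.

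Within UM-UC-3, LDHA and PGK1 were lower with both hairpins. LDHA changed by -1.34 with sh-LNMAT1#1 and by -1.63 with sh-LNMAT1#2 on the scale of log2(FPKM + 0.5), and PGK1 by -1.20 and -0.62. With 1 library for each construct there was no test, and a gene was called when each hairpin library was at least 2-fold away from sh-NC on the same side. LDHA alone was called lower among the 9 genes kept at a mean of at least 1 FPKM, where 0.358% of the 12024 genes kept were called lower and 1.08% higher. At any size, 6 of the 9 were lower with both hairpins (GPI, ALDOA, GAPDH, PGK1, ENO1 and LDHA), against 31.6% of all genes, and 0 of the 9 were higher with both, against 33%. Their median log2 change was -0.19, against 0.0023 over all genes kept. SLC2A1, HK2 and PFKP moved to opposite sides of sh-NC with the 2 hairpins. CA9 fell short of the 1 FPKM filter in this line and differed from sh-NC by -0.59 and -0.13.

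Within 5637 the changes are those from the library labelled 5637 sh-NC, whose profile was that of UM-UC-3, so that silencing and cell line cannot be told apart there. HK2 was lower by the 2-fold rule, with log2 changes of -1.20 and -1.60, while LDHA (1.52 and 1.01) and CA9 (1.77 and 1.97) were higher. The LDHA call ended under either other scaling and with a pseudocount of 1, where sh-LNMAT1#2 fell just short of 2-fold and 2 of the 10 genes were called. The mean change of CA9, 1.87, was 2.89 with a pseudocount of 0.1 and 1.34 with one of 1, against a level of 0.183 FPKM in the library labelled 5637 sh-NC. By this rule 18.5% of 12790 genes were higher and 12.3% lower. At any size, 5 of the 10 were higher with both hairpins and 4 lower with both, against 48.3% and 42.8% of all genes. PGK1 was higher with both hairpins (0.81 and 1.36), and GAPDH (-0.53 and -0.80) and ENO1 (-0.65 and -0.74) were lower with both, without reaching 2-fold with both. On the same scale the library labelled 5637 sh-NC was nearer to a UM-UC-3 library than to a 5637 sh-LNMAT1 library for 9 of the 10 genes, PFKP being the other, and the nearest UM-UC-3 library was sh-LNMAT1#1 for 10 of 10.

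**Figure D2:**
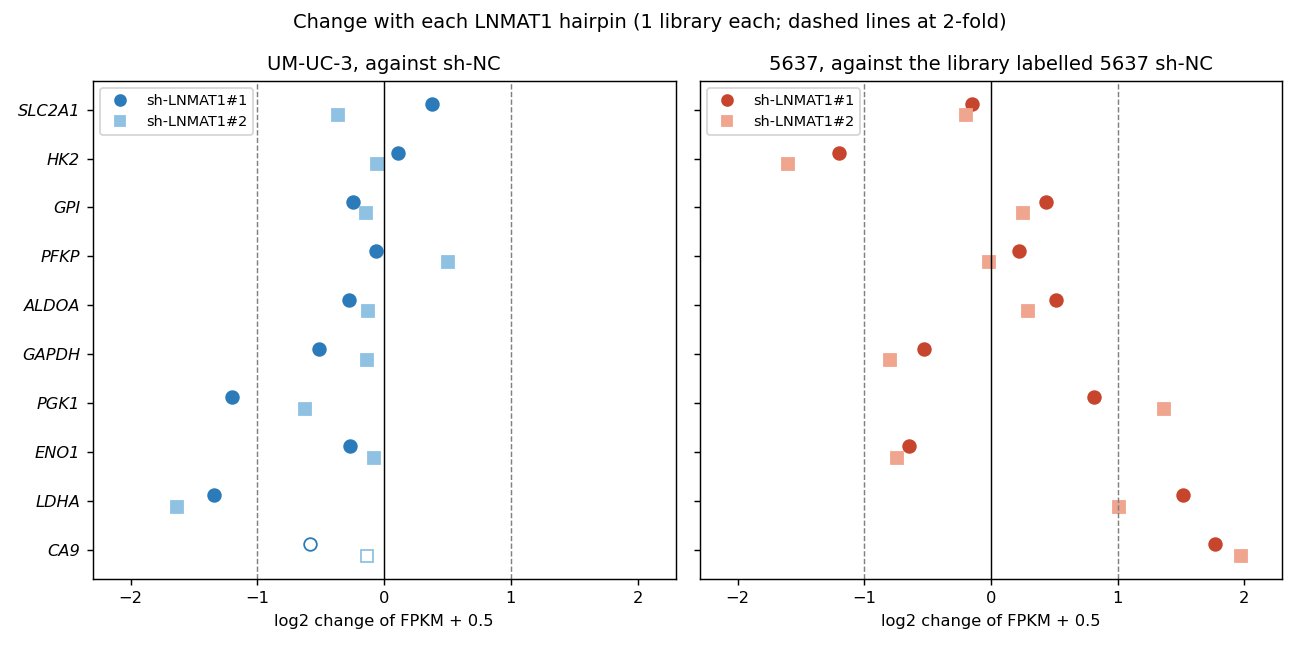
Each point is the change of log2(FPKM + 0.5) from the sh-NC library to 1 sh-LNMAT1 library, circles for sh-LNMAT1#1 and squares for sh-LNMAT1#2, in UM-UC-3 on the left and in 5637, against the library labelled 5637 sh-NC, on the right. Dashed lines mark 2-fold, and open symbols mark CA9 in UM-UC-3, which was under the filter. LDHA lies at -1.34 and -1.63 on the left and at 1.52 and 1.01 on the right.

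The changes from the control libraries were also set against each other with an interaction term. Because of the profile of the library labelled 5637 sh-NC, a different response to silencing cannot be told apart from the difference between the lines. LDHA changed by 2.75 (SE 0.43) more on the log2 scale in 5637 than in UM-UC-3, with a limma adjusted p of 0.0143, and CA9 by 2.23 (SE 0.42), with an adjusted p of 0.0241. In this direction passed 10% of 12716 genes, and 8.79% in the other. CA9 reached the filter of 1 FPKM only through the 5637 hairpin libraries. PGK1 at 2.00 (SE 0.52, limma adjusted p = 0.0536) and HK2 at -1.43 (SE 0.39, limma adjusted p = 0.0582) did not pass. The model had 1 control library in each line, so it holds no spread between controls, and every one of these values rests on the library labelled 5637 sh-NC. With no filter on low genes neither LDHA (adjusted p = 0.0736) nor CA9 (adjusted p = 0.0888) passed in limma.

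The lines were compared without either control, as 2 sh-LNMAT1 libraries of 5637 against 2 of UM-UC-3. Each line was grown in its own medium, so line and medium cannot be told apart here, and the part of the medium was not tested. Only libraries with silenced LNMAT1 were compared, so a line difference cannot be told apart from a different response to silencing. Among these silenced libraries, LDHA and CA9 were higher in 5637, and HK2, GAPDH and ENO1 were lower. For LDHA, UM-UC-3 sh-NC, at 72.5 FPKM, lay between the 5637 sh-LNMAT1 libraries, at 74.6 and 52.4 FPKM. The UM-UC-3 sh-LNMAT1 libraries were at 28.3 and 23.0 FPKM. For CA9, HK2, GAPDH and ENO1, UM-UC-3 sh-NC lay outside the 5637 sh-LNMAT1 levels, on the side of the UM-UC-3 sh-LNMAT1 libraries. The log2 difference was 1.28 for LDHA (SE 0.25, 2.42-fold, limma adjusted p = 0.0137) and 0.91 for CA9 (SE 0.25, 1.88-fold, limma adjusted p = 0.0368). It was -1.30 for HK2 (SE 0.22, limma adjusted p = 0.00911), a 2.47-fold lower level. For ENO1 it was -0.84 (SE 0.19, limma adjusted p = 0.0202) and for GAPDH -0.81 (SE 0.22, limma adjusted p = 0.0385). CA9, at 0.636 and 1.06 FPKM in the UM-UC-3 hairpin libraries, was kept at the 1 FPKM filter only through its 5637 levels. Its direction was therefore fixed in advance. Thus 2 of the 10 genes were higher and 3 lower, where 20.2% of the 12843 genes tested were higher and 18.4% lower. The other 5 did not pass, and their 95% intervals were -0.48 to 0.97 for SLC2A1, -0.18 to 0.79 for GPI, -1.02 to 0.27 for PFKP, -0.15 to 0.83 for ALDOA and -0.12 to 1.40 for PGK1.

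The line differences rest on the spread between 2 hairpins, with 2 residual degrees of freedom. With 5637 sh-LNMAT1#1 or 5637 sh-LNMAT1#2 left out, 0 of the 10 genes passed in limma, with the smallest adjusted p at 0.0719 for HK2, and 1192 and 1222 genes passed in all, against 4951 with every library; the lone 5637 library is then assumed to vary like the UM-UC-3 pair. GAPDH no longer passed without UM-UC-3 sh-LNMAT1#2 (limma adjusted p = 0.0792), nor CA9 without UM-UC-3 sh-LNMAT1#1 (limma adjusted p = 0.0680). With no filter on low genes 1 of the 10 passed, HK2. With UM-UC-3 sh-NC added to the UM-UC-3 side, LDHA was 0.78 higher in 5637 and no longer passed (limma adjusted p = 0.241), while the other 4 did. HK2, GAPDH and ENO1 were lower in both 5637 sh-LNMAT1 libraries than in all 3 UM-UC-3 libraries, GPI, ALDOA and CA9 were higher, and the other 4 overlapped. Of the 12747 genes kept in these 5 libraries, 33.8% were lower and 32.2% higher in this sense.

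Isoforms of the same step were then set beside the members, a description chosen after the values were seen. HK1, the housekeeping hexokinase, was 1.65 to 3.05 FPKM in UM-UC-3, 1.66 FPKM in the library labelled 5637 sh-NC but 17.1 and 18.0 FPKM in the 5637 hairpin libraries, a line difference of 2.71 (SE 0.29, limma adjusted p = 0.00179). HK2 made up 88.4 to 92.7% of the summed FPKM of the 5 hexokinase genes in UM-UC-3, 91.4% in the library labelled 5637 sh-NC, and 44.2 and 36.3% in the 5637 hairpin libraries. The hexokinase sum lay between 28.7 and 35.8 FPKM in the 6 libraries, a narrower range than that of either isoform. LDHB, the heart-type subunit, was 241 to 282 FPKM in UM-UC-3, 260.3 FPKM in the library labelled 5637 sh-NC but 120.3 and 122 FPKM in the 5637 hairpin libraries, a line difference of -1.07 (SE 0.18, limma adjusted p = 0.00872). LDHA was 20.4% of the lactate dehydrogenase sum in UM-UC-3 sh-NC, 10.503 and 7.86% with its hairpins, 9.003% in the library labelled 5637 sh-NC, and 38.3 and 30.0% in the 5637 hairpin libraries. LDHB was thus the more abundant subunit in each library.

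CA12, a second cell surface carbonic anhydrase, went the other way from CA9. It was 17.5 to 23.8 FPKM in UM-UC-3, 17.1 FPKM in the library labelled 5637 sh-NC but 0.301 and 0.256 FPKM in the 5637 hairpin libraries, a line difference of -4.95 (SE 0.20, limma adjusted p = 0.000178). CA9 made up 2.66 to 6.47% of the summed FPKM of CA9 and CA12 in UM-UC-3, 1.06% in the library labelled 5637 sh-NC, and 85.9 and 89.5% in the 5637 hairpin libraries. The sum was 18.7 to 24.9 FPKM in UM-UC-3 and 2.13 and 2.43 FPKM in the 5637 hairpin libraries. CA2, a cytosolic carbonic anhydrase, was 0.756 to 2.01 FPKM in UM-UC-3, 1.56 FPKM in the library labelled 5637 sh-NC but 11.97 and 22.0 FPKM in the 5637 hairpin libraries. Among the 4 of 14 other carbonic anhydrases kept between the lines, CA2 was higher in 5637, CA12 was lower and 2 did not pass. CA12 was kept only through its UM-UC-3 levels.

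Other glycolysis enzymes and isoforms were described from a list of 20 genes, of which 8 were kept. Between the lines, 2 were higher in 5637 (HK1 and PKM) and 1 was lower (LDHB), with a median difference of 0.091 against -0.016 over all genes. The shares over all genes, 20.2% higher and 18.4% lower, are the background of this and each later count between the lines. PKM, the pyruvate kinase of most tissues, was 85.6, 46.7 and 73.9 FPKM in UM-UC-3, 40.0 FPKM for the library labelled 5637 sh-NC, and 107 and 113 FPKM in the 5637 hairpin libraries (line difference 0.90, SE 0.27, limma adjusted p = 0.0472). Within UM-UC-3, 0 of the 8 were called by the 2-fold rule. PGAM1, a phosphoglycerate mutase, changed by -0.99 and -0.37 and PKM by -0.87 and -0.21, the same direction as PGK1 and LDHA, and PFKL, the liver-type phosphofructokinase, by 0.33 and 1.07.

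Enzymes that set fructose 2,6-bisphosphate, the activator of phosphofructokinase, differed between the lines for 4 of the 4 kept of 5 listed, 3 higher in 5637 and 1 lower, where 20.2% and 18.4% of all genes were. PFKFB4 was 0.770 to 1.39 FPKM in UM-UC-3 and 4.54 and 4.58 FPKM in the 5637 hairpin libraries, a difference of 1.76 (SE 0.24), and PFKFB2 differed by 1.69 (SE 0.21), with limma adjusted p of 0.00422 and 0.0030. TIGAR, which breaks the activator down, was 6.34 to 11.3 FPKM in UM-UC-3 and 1.19 and 1.41 FPKM in the 5637 hairpin libraries (difference -2.32, SE 0.31, limma adjusted p = 0.00403). PFKFB3 was also higher in 5637. PFKFB2 was kept only through its 5637 levels, so its direction was fixed in advance. Within UM-UC-3, 0 of the 3 kept were called.

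Lactate leaves cells through monocarboxylate transporters. SLC16A3, which encodes the exporter MCT4, was 3.73, 1.49 and 2.36 FPKM in UM-UC-3, 1.19 FPKM for the library labelled 5637 sh-NC, and 29.04 and 25.4 FPKM in the 5637 hairpin libraries, a line difference of 3.54 (SE 0.25, limma adjusted p = 0.000486). Its UM-UC-3 changes of -1.09 and -0.56 had the direction of those of LDHA. Of the 5 genes kept of 6 for lactate and proton export, 1 was higher, 1 lower (SLC4A7, a bicarbonate transporter, -1.06) and 3 did not pass between the lines, and 0 of 5 were called within UM-UC-3.

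For the steps that take pyruvate into mitochondria, 3 of 12 genes kept were higher in 5637 and 0 lower: PDP1, a phosphatase that activates pyruvate dehydrogenase (1.89, SE 0.22), and PDK3 and PDK2, kinases that inactivate it (1.55, SE 0.25, and 1.53, SE 0.24), with limma adjusted p of 0.00242 to 0.00782. Within UM-UC-3, 0 of these 12 were called. With both hairpins 8 were lower and 3 higher, against 31.6% and 33% of all genes, and both changes were taken from the same sh-NC library. In the pentose phosphate pathway, which branches off after hexokinase, 2 of 7 were higher and 2 lower between the lines. RPIA, a ribose phosphate isomerase, was the lowest at -1.77 (SE 0.18, limma adjusted p = 0.00159). PGD, which makes NADPH, was 35.6, 14.8 and 20.3 FPKM in UM-UC-3 (-1.24 and -0.80), not called by the 2-fold rule. For gluconeogenesis, the reverse route, 3 of 7 genes were kept, 2 of them lower in 5637 (PCK2, -1.30, and G6PC3, -0.95) and 0 higher.

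Other hypoxia-induced genes outside glycolysis differed between the lines in both directions. Of 22 listed and 19 kept, 2 were higher in 5637, 6 were lower and 11 did not pass, with a median difference of -0.57 against -0.016 over all genes. ANGPTL4, a secreted lipase inhibitor, was 13.2, 36.2 and 7.23 FPKM in UM-UC-3, 18.1 FPKM in the library labelled 5637 sh-NC but 0.0541 and 0.129 FPKM in the 5637 hairpin libraries. LOX, a collagen-crosslinking oxidase, was 0.203 to 0.327 FPKM in UM-UC-3 and 4.82 and 6.43 FPKM in the 5637 hairpin libraries (difference 3.04, SE 0.23, limma adjusted p = 0.000597). The 2 higher genes, LOX and INSIG2, were kept only through their 5637 levels, and ANGPTL4 only through its UM-UC-3 levels. Their directions were therefore fixed in advance. Cell type markers differed between the same libraries. Of the 12 epithelial markers, 0 reached the filter of 1 FPKM within UM-UC-3, and 7 were kept between the lines through their 5637 levels. Those 7 were higher in 5637, a direction that the filter fixed in advance. Of 5 mesenchymal markers kept, 2 were higher and 3 lower. VIM was 116 to 332 FPKM in UM-UC-3 and 3.85 and 4.14 FPKM in the 5637 hairpin libraries. The part of cell type in the differences was not tested.

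Within UM-UC-3, 1 of 18 kept hypoxia-induced genes was called lower and 0 higher. That gene was BNIP3, a mitophagy receptor, at 37.6, 15.7 and 17.9 FPKM (-1.23 and -1.05), which had the UM-UC-3 pattern of LDHA and PGK1. VEGFA, the angiogenic growth factor, was 2.42, 9.82 and 4.796 FPKM (1.82 and 0.86), and DDIT4, an mTORC1 inhibitor, 42.1, 174 and 51.3 FPKM (2.04 and 0.28), both on the other side of the control. By direction alone, 9 of the 18 were higher with both hairpins and 3 lower with both, against 33% and 31.6% of all genes. Regulators of oxygen sensing gave 0 calls among 7 kept within UM-UC-3. Between the lines, 3 of 8 were higher in 5637 and 0 lower: VHL (2.17, SE 0.19), HIF1A (1.30, SE 0.20) and ARNT2 (2.58, SE 0.24), with limma adjusted p of 0.000913 to 0.00604. ARNT2, at 0.0061 and 0.0089 FPKM in the UM-UC-3 hairpin libraries, was kept only through its 5637 levels. Its direction was therefore fixed in advance. HIF1A RNA was 38.4 to 46.6 FPKM in UM-UC-3 and 101 and 109 FPKM in the 5637 hairpin libraries, and the HIF proteins, which oxygen controls, were not measured.

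As GAPDH serves as a reference gene, 12 reference genes from outside glycolysis were set beside it. Between the lines 2 were higher in 5637 and 1 lower, with a median difference of 0.53 against -0.016 over all genes, where GAPDH was -0.81. ACTB, which encodes beta-actin, was 92.9, 106 and 151 FPKM in UM-UC-3 and 327 and 258 FPKM in the 5637 hairpin libraries (1.20, SE 0.26, limma adjusted p = 0.0183), the opposite direction to GAPDH. Within UM-UC-3, 0 of 12 were called, and GAPDH was -0.51 and -0.14 from sh-NC.

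The genes most like CA9 over the 6 libraries, by Pearson r of log2(FPKM + 0.5), were CCNI (0.996), GEN1 (0.996), SEMA4B (0.994), SPATS2L (0.987) and TIAM1 (0.987). GEN1 was 2.86, 1.12 and 2.06 FPKM in UM-UC-3, 0.330 FPKM in the library labelled 5637 sh-NC but 5.24 and 6.24 FPKM in the 5637 hairpin libraries. Most like the mean of the 9 glycolysis genes, each centred, were C18orf54 (0.994), COX10 (0.989), TLN2 (0.985), CHAMP1 (0.983) and PIK3CB (0.983). COX10 was 5.36, 2.73 and 3.34 FPKM in UM-UC-3, 2.73 FPKM for the library labelled 5637 sh-NC, and 3.03 and 2.59 FPKM in the 5637 hairpin libraries. These are descriptions over 6 libraries of which 4 share a similar profile, and the genes were ranked by r itself.

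Several of the 10 genes share sequence with other rows, which the counting could have split. In words of 50 nucleotides, 37.9% of ALDOA was shared, mostly with the overlapping readthrough gene AC093512.2, and ALDOA's listed span starts upstream of its own GENCODE start. HK2 shared 8.16% (HK2P1), GAPDH 7.77% (GAPDHP1 and others), GPI 5.20%, LDHA 4.03%, PGK1 3.83%, ENO1 1.86%, PFKP 1.46% and SLC2A1 1.31%, and CA9 shared 0%. The 61 listed GAPDH pseudogenes summed to 26.4 to 55.2 FPKM beside 344 to 834 FPKM of GAPDH. LDHAP4, an LDHA copy, was 6.61, 1.75 and 2.45 FPKM in UM-UC-3, 2.68 FPKM in the library labelled 5637 sh-NC but 7.13 and 5.02 FPKM in the 5637 hairpin libraries, the same order of high and low libraries as LDHA except among the 3 low ones. CA9 overlaps exons of ARHGEF39 on the other strand, which reached 3.44 FPKM. The kit keeps strand, but whether counting used it is not given in the sources used here, so CA9 reads could not be told apart from those of ARHGEF39 if it did not.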

How the data were processed

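Total RNA of 6 stable cell populations was extracted with TRIzol and sequenced as stranded mRNA libraries, per the labels. The values deposited by the authors are FPKM, in a table of 50869 gene rows. The submitters' processing notes name HISAT2 and hg38, and the counting program and annotation are not given in the sources used here. A row without values and a displaced row fragment, both of TGFB1, were left out. Depth was read from single-exon genes, whose values were whole fragments in at least 99.95% of cases within 0.05 fragments. Fragment bounds cover the range of possible gene lengths only and hold no counting error. The p-values measure the spread between these libraries.

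The work used limma 3.58.1 in R 4.3.3 and, for tables, pandas 2.3.3 and numpy 2.4.6 in Python 3.11.15. Differences were taken on log2(FPKM + 0.5), so those of low genes are understated. Genes under a mean of 1 FPKM were not tested. Between the lines this mean ran over both lines. A gene whose mean was under 1 FPKM in 1 line was kept only through the other, so its direction was then fixed in advance. limma (lmFit, eBayes with a trend, Benjamini-Hochberg over all genes tested) fitted the pooled knockdown with 3 residual degrees of freedom and the line comparison and interaction with 2. No count test was run. The scripts were tested on simulated data.

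The genes, lists and tests were chosen with earlier results of these data known. All 10 genes are given in every library, and of each other list at most 3 genes with the largest UM-UC-3 change and 3 with the largest line difference, plus the 5 genes most like CA9 and the glycolysis mean. Markers and genes named to complete a count of 5 or fewer were chosen after their values were seen. Promoters are RefSeq windows of GRCh38.p14, and gene models are GENCODE release 29. Alternatives were 2 other scalings, pseudocounts of 0.1 and 1, no filter and one of 5 FPKM, a 1.5-fold rule, single hairpins, limma with no trend, no line covariate, a hairpin block, UM-UC-3 sh-NC added to the line comparison and leaving out each library.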

Additional observations from a re-analysis of the deposited data

Results flagged for a closer look

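The change of LDHA from the control library differed between the lines by an interaction test, with a log2 difference of 2.75 (5637 minus UM-UC-3, limma adjusted p = 0.0143): LDHA was lower in 2 of 2 UM-UC-3 hairpin libraries and higher in 2 of 2 of 5637. For CA9 the difference was 2.23 (limma adjusted p = 0.0241), with CA9 lower in 2 of 2 UM-UC-3 hairpin libraries and higher in 2 of 2 of 5637. Both values rest on the library labelled 5637 sh-NC, which had the profile of UM-UC-3, so that the knockdown and the line cannot be told apart in 5637. In UM-UC-3, CA9 was under the filter of 1 FPKM, and it was kept only through the 5637 hairpin libraries. Its UM-UC-3 log2 changes were -0.59 and -0.13. The sh-LNMAT1#2 level there stood for 7.97 to 40.5 fragments, against 9.81 to 49.8 for sh-NC. In the library labelled 5637 sh-NC, CA9 had 1.35 to 6.85 fragments. Without a filter on low genes, LDHA and CA9 both failed to pass the interaction test.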

How the results depend on the processing

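The limits are 1 library for each construct, a doubtful 5637 control and few fragments for CA9. A further limit is that UM-UC-3 sh-LNMAT1#1 was more like that control than like the other UM-UC-3 libraries. The hairpin number did not pair the libraries (Pearson r = 0.027 over 12843 genes between the hairpin differences of the lines), and with it as a block 5254 genes and 5 of the 10 members were called between the lines. In the pooled knockdown, leaving out 1 library in turn gave 0 to 4029 genes and 0 to 3 of the 10 members called, all calls coming without UM-UC-3 sh-NC. Over these leave-outs the pooled log2 change ran from -0.26 to 0.061 for SLC2A1, -1.40 to 0.027 for HK2, -0.19 to 0.34 for GPI, -0.21 to 0.40 for ALDOA, -0.91 to 1.09 for PGK1, -1.49 to 1.26 for LDHA and -0.36 to 1.87 for CA9. Of these genes, all but LDHA changed sign without the library labelled 5637 sh-NC, and LDHA without any 1 of UM-UC-3 sh-NC and its hairpin libraries. The sign also turned for SLC2A1 without UM-UC-3 sh-LNMAT1#2 (0.061), GPI without 5637 sh-LNMAT1#1 (-0.0026) and PGK1 without 5637 sh-LNMAT1#2 (-0.17). Between the lines, leaving out 1 library gave 1192 to 5574 genes and 0 to 5 of the members, and SLC2A1 ran from -0.13, without UM-UC-3 sh-LNMAT1#2, to 0.61, which passed, without UM-UC-3 sh-LNMAT1#1. No filter gave 1 member between the lines and 0 in the interaction, where more genes were tested (main values 5 and 2). A filter of 5 FPKM, which removes CA9, gave 87 genes within UM-UC-3, 1899 within 5637, 2328 between the lines and 889 genes and 1 member in the interaction, with fewer genes tested, against 173, 3932, 4951 and 2389 genes in the main comparisons. Within UM-UC-3, the main rule called 173 genes and 1 member, pseudocounts of 0.1 and 1 called 260 and 108 genes, a 1.5-fold rule 816 genes and 2 members, sh-LNMAT1#1 alone 1304 genes and 2 members, and sh-LNMAT1#2 alone 422 genes. Within 5637, a 1.5-fold rule called 6452 genes and 5 members. Of the values of single members under the alternatives, 465 kept their direction and side of the threshold or moved by less than the spread, 19 no longer passed, 3 newly passed, 6 moved and 13 reversed. For values within a line, this tally followed the mean log2 change and not the call. The filters, the 1.5-fold rule and the single hairpins could not move such a value beyond the spread, so those entries were fixed in advance. The lost LDHA calls within 5637 are therefore counted among the 465.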
